A study of Mus musculus with 12 samples.

Results

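The BCL2 family genes described here were 10 genes that set whether a cell lives or dies through its mitochondria, chosen by symbol: Bcl2, Bcl2l1, Mcl1, Bax, Bak1, Bcl2l11, Bid, Bbc3, Pmaip1 and Bad. All 10 were among the 35303 gene symbols counted, and all 10 were among the 17676 genes with at least 2 counts over the 12 libraries, which were the genes tested. The libraries were poly(A) RNA-seq of mouse myeloid-derived suppressor cells (MDSCs), an immature myeloid population that restrains T cells, in 3 groups of 4. MDSC were unmodified cells, MDSC-NP-Blk were cells with blank polymer nanoparticles bound to their surface, and CITED were cells with the same kind of particle loaded with rapamycin, an inhibitor of the kinase mTOR. The comparisons ask what binding a particle does to these genes, and what the drug adds to it.

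All 3 groups were wild type and shared their origin. Bone marrow of female C57BL/6 mice aged 6 to 10 weeks was grown with IL-6 and GM-CSF, CD11b+ Gr1+ cells were purified, and each group was then kept for 24 hours with IL-6 at 40 ng/ml before lysis. In the particle groups a sugar carrying an azide had been placed on the cell surface, so that particles bearing dibenzocyclooctyne could click onto it. Whether unmodified MDSC also received the sugar and the binding step is not stated, so both are joined with the particle in each comparison against MDSC. The labels call the samples biological replicates without saying whether they came from separate mice or cultures, and the p-values below measure the spread between these samples. The labels give the tissue as CNS, while the study's methods describe cultured marrow cells, and Rbfox3, Snap25, Syt1, Gfap, Aqp4 and Sall1, markers of neurons, glia and microglia, had no count in any library.

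BCL2 family proteins meet at the mitochondrial outer membrane. Bcl2, Bcl-xL (from Bcl2l1) and Mcl1 hold back Bax and Bak1, the effectors that open pores in that membrane and let cytochrome c out to start the caspases. BH3-only proteins, among them Bim (Bcl2l11), Bid, Puma (Bbc3), Noxa (Pmaip1) and Bad, sense stress or lost growth signals and tip the balance by binding the protectors or the effectors. Mcl1 is short-lived and is known as the protector on which neutrophils and many myeloid cells depend, kept up by growth factors such as GM-CSF. Much of this control acts on the proteins, which were not measured here.

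What the members have in common is the BH3 segment, the helix by which one member grips another, and the coding bases of it are shown to let the members be compared. Each stretch below covers 42 bases of the GENCODE canonical transcript (mouse release 39, build GRCm39), 5′ to 3′ on the gene's own strand. Capitals mark the codon of a leucine and, after 3 further codons, the codons of a glycine, alanine or serine and of an aspartate.

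Mcl1: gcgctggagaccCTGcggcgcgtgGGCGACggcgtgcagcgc
Bcl2l1: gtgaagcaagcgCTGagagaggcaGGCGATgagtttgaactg
Bcl2: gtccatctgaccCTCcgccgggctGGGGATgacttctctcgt
Bax: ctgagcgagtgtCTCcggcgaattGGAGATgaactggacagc
Bak1: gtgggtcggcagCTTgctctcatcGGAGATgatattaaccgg
Bcl2l11: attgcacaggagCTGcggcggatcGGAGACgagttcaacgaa
Bid: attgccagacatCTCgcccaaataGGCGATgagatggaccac
Bbc3: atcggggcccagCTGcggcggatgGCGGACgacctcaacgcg
Bad: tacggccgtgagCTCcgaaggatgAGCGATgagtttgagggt

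These stretches lie at chr3:95566735-95566776 for Mcl1, chr2:152671614-152671655 for Bcl2l1, chr1:106640302-106640343 for Bcl2, chr7:45115418-45115459 for Bax and chr17:27241502-27241543 for Bak1. For the BH3-only genes they lie at chr2:127989058-127989099 for Bcl2l11, chr6:120874247-120874288 for Bid, chr7:16047686-16047727 for Bbc3 and chr19:6928148-6928189 for Bad. The small residue was glycine in 7 of the 9 shown, alanine in Bbc3 and serine in Bad. Each of these 9 coding sequences held the pattern exactly once, and that of Pmaip1 held it 2 times. The pattern alone does not mark the family, since 33.3% of 22240 coding canonical transcripts hold it at least once. Over the 14 residues coded by the stretch, Bcl2 and Mcl1 were identical at 7, as were Bcl2l11 and Bad, whereas Bcl2l1 and Mcl1 were identical at 4.

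Sequencing depth was similar in the groups, with assigned counts of 21549696 to 27832481 for MDSC, 20604809 to 37855478 for MDSC-NP-Blk and 21336119 to 27077958 for CITED. The 12 libraries differed in how counts depended on transcript length. Spearman's rho between a gene's level, relative to its mean over all libraries, and its transcript length ran from 0.218 to 0.346 in MDSC and from -0.341 to -0.187 in CITED, so long transcripts were relatively higher in MDSC. In MDSC-NP-Blk replicates 1 to 4 rho was -0.42, -0.047, 0.092 and -0.24, and replicates 1 and 4 resembled each other more than they did replicates 2 and 3. Among cell type markers, the summed level of MDSC genes in CPM, counts scaled to a common library total, was 25777 to 29188 for MDSC, 33746 to 35784 for MDSC-NP-Blk and 25619 to 29443 for CITED. The summed marker list of macrophages was highest in MDSC, at 333 to 355 CPM against 177 to 239 and 202 to 211. Its genes were not all alike. Adgre1, the most abundant of them, averaged 153, 155 and 181 CPM by group, taken in that order, and so was highest in CITED. Mrc1 averaged 73.4, 15.4 and 10.5, and C1qa, C1qb, C1qc and Mertk were likewise highest in MDSC and lowest in CITED. The mast cell and basophil list was lowest in CITED, at 295 to 313 CPM. It was at 461 to 495 for MDSC and 540 to 585 for MDSC-NP-Blk. Megakaryocyte markers summed to 187 to 209 CPM for MDSC, 278 to 298 for MDSC-NP-Blk and 304 to 333 for CITED, and B cell markers to 13.9 to 19.9, 10.5 to 14.6 and 3.85 to 5.06. The megakaryocyte genes differed in direction. In the same order Pf4 averaged 94.1, 143 and 172 CPM and Ppbp 39.9, 53.6 and 93.3. Itga2b averaged 60.5, 84.4 and 52.4 CPM, and Gp9 2.51, 3.89 and 2.73. Mitochondrial genes took 1.88% to 2.13% of counts for MDSC, 1.5% to 1.68% for MDSC-NP-Blk and 1.4% to 1.53% for CITED. Genes of the MDSC list differed in direction. Itgam, which codes for CD11b, averaged 2108, 2491 and 2841 CPM in the order MDSC, MDSC-NP-Blk, CITED, Csf3r 176, 446 and 512, and Ly6g 160, 187 and 185. Mpo, a granule gene of early granulocytic cells, averaged 1102 CPM for MDSC, 354 for MDSC-NP-Blk and 51.9 for CITED. Other genes of the list were lowest in CITED too. In the same order Camp averaged 585, 539 and 254 CPM, Ccr2 145, 91.2 and 64.2, and Ly6c2 1042.5, 1366 and 821. In bulk RNA a change in the mix of cells and a change in RNA per cell cannot be told apart, and the part of these markers and of the mitochondrial share in the results below was not tested.

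**Figure D1:**
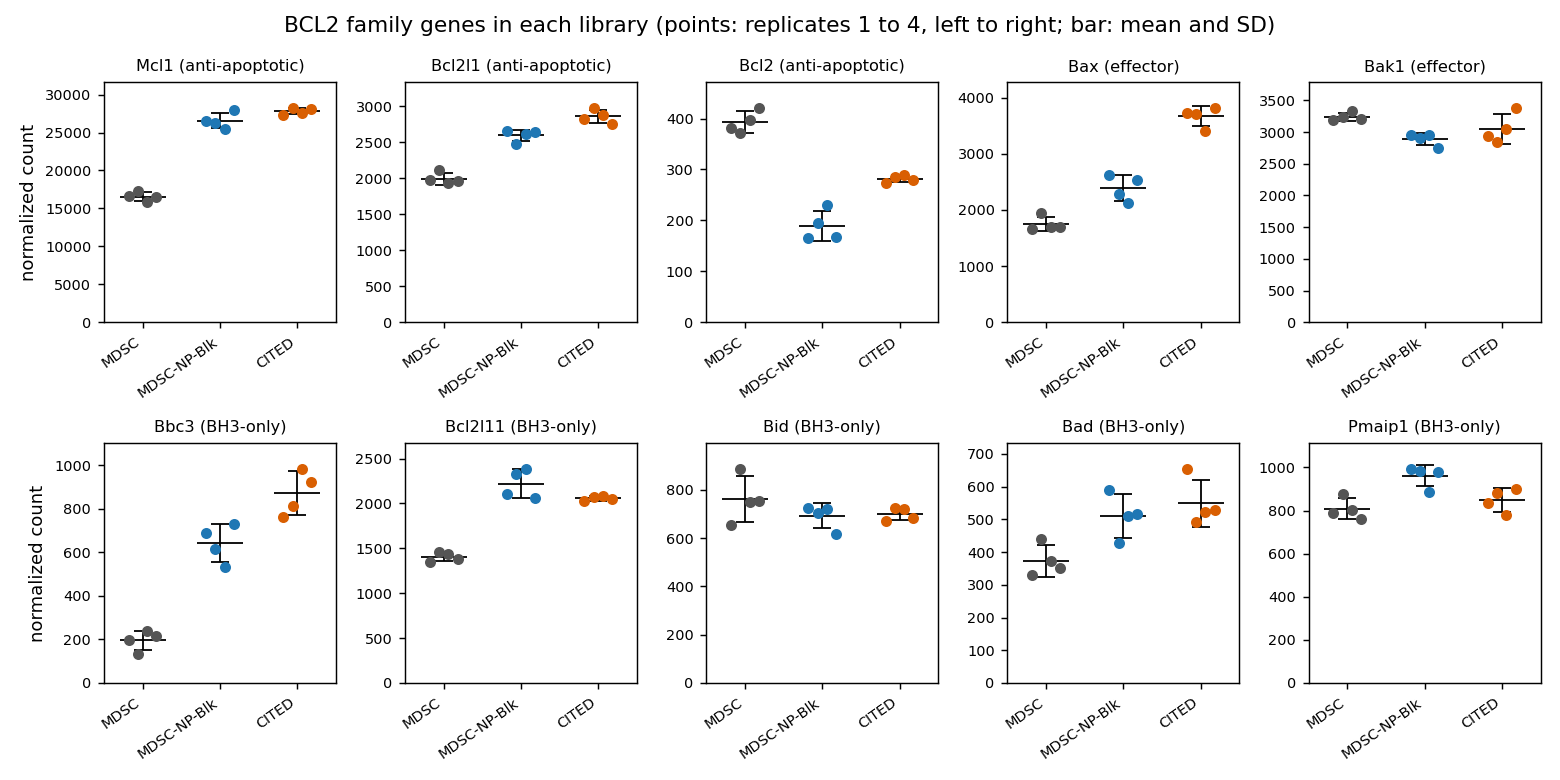
Normalized counts (counts scaled to a common effective library size, vertical axes from 0) of the 10 BCL2 family genes in the 4 libraries of each group, with the group mean and SD as bars. Mcl1, Bcl2l1, Bax, Bcl2l11 and Bbc3 stood above all MDSC libraries in both particle groups, Bcl2 stood below them, and Bid overlapped in all groups.

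Mcl1, the most abundant of the 3 member protectors, rose with either particle. Mcl1 (chr3:95566026-95570487) stood at 16589, 17326, 15836 and 16448 normalized counts in MDSC replicates 1 to 4, at 26585, 26258, 25486 and 27917 in MDSC-NP-Blk, and at 27340, 28234, 27569 and 28065 in CITED. Every particle-bearing library lay above every MDSC library, and the particle groups overlapped each other. By edgeR's quasi-likelihood test, Mcl1 was 1.60-fold higher in MDSC-NP-Blk than in MDSC (log2 fold change 0.68, SE 0.043, adjusted p = 4.9e-15) and 1.68-fold higher in CITED than in MDSC (log2 fold change 0.75, SE 0.043, adjusted p = 1.7e-16). CITED and MDSC-NP-Blk differed by 0.07 (95% interval -0.02 to 0.15, adjusted p = 0.31), so a drug effect of more than 0.15 in log2 lay outside the interval. A gene-level count does not separate the isoforms of Mcl1.

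Bcl2l1 (chr2:152622582-152673655), which codes for Bcl-xL, followed the same order at lower levels. It stood at 1975, 2116, 1931 and 1954 normalized counts in MDSC, at 2648, 2474, 2611 and 2636 in MDSC-NP-Blk, and at 2817, 2973, 2879 and 2753 in CITED. No group overlapped another. The gene rose by 0.38 in log2 in MDSC-NP-Blk (SE 0.0536, adjusted p = 4.3e-07) and by 0.52 in CITED (SE 0.0537, adjusted p = 4.1e-10), both against MDSC. The step from MDSC-NP-Blk to CITED was 0.14 (95% interval 0.03 to 0.25) and just missed the threshold (adjusted p = 0.058). It passed with DESeq2's size factors (adjusted p = 0.048), with DESeq2's Wald test (0.012), with a stricter filter on low counts (0.027) and after correction for transcript length (0.017).

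Bcl2 (chr1:106465908-106642060), the founding protector, went the other way. It stood at 381, 372, 398 and 421 normalized counts in MDSC, at 166, 194, 229 and 167 in MDSC-NP-Blk, and at 273, 285, 290 and 279 in CITED. The groups did not overlap, and CITED lay between the other two. Against MDSC, Bcl2 fell by 1.05 in log2 in MDSC-NP-Blk (0.484 times the MDSC level, SE 0.109, adjusted p = 8.0e-10) and by 0.48 in CITED (0.717 times, SE 0.106, adjusted p = 2.8e-04). CITED was higher than MDSC-NP-Blk by 0.57 (SE 0.112, adjusted p = 1.9e-04). Its canonical transcript, at 7247 bases, was the longest of the 10, and within each group its counts ran in the order of the libraries' rho. With that trend removed per library, the difference between CITED and MDSC shrank to -0.20 and no longer passed (adjusted p = 0.11), while those of MDSC-NP-Blk against MDSC (-0.86, adjusted p = 6.4e-09) and of CITED against MDSC-NP-Blk (0.66) did.

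Of the effectors, Bax rose stepwise and Bak1 differed little between groups. Bax (chr7:45111015-45116325) stood at 1665, 1944, 1695 and 1699 normalized counts in MDSC, at 2621, 2287, 2131 and 2530 in MDSC-NP-Blk, and at 3735, 3711, 3413 and 3815 in CITED. The 3 groups were apart, with CITED highest. Bax was higher than in MDSC by 0.45 in log2 in MDSC-NP-Blk (SE 0.0640, adjusted p = 4.7e-07) and by 1.07 in CITED (2.10-fold, SE 0.0640, adjusted p = 5.0e-16), and the drug step from MDSC-NP-Blk to CITED was 0.62 (1.54-fold, SE 0.0633, adjusted p = 1.7e-09). Bax has the shortest canonical transcript of the members, at 976 bases. With the length trend removed, its change against MDSC was 0.20 in MDSC-NP-Blk (adjusted p = 0.0018) and 0.82 in CITED, and the drug step stayed at 0.63. Of its 31-base words 17.2% also occur in Gm45808, an overlapping gene model on the same strand, so reads there could be divided between the pair.

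Bak1 (chr17:27238784-27247983) stood at 3183, 3237, 3329 and 3205 normalized counts in MDSC, at 2954, 2906, 2959 and 2748 in MDSC-NP-Blk, and at 2932, 2845, 3045 and 3378 in CITED. MDSC-NP-Blk lay below MDSC in every library, while CITED overlapped both. The fall in MDSC-NP-Blk was 0.16 in log2 (SE 0.0546, adjusted p = 0.016), and it missed the threshold without MDSC replicate 3 (adjusted p = 0.053) or without MDSC-NP-Blk replicate 4 (0.054). Against MDSC, CITED differed by -0.09 (95% interval -0.20 to 0.03, adjusted p = 0.22), a difference that passed without CITED replicate 4 (-0.14, adjusted p = 0.048) and with the length trend removed (-0.17, adjusted p = 0.0045). Ggnbp1 overlaps Bak1 on the opposite strand, and whether the library kit keeps strand is not stated.

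The BH3-only genes divided into those that rose with the particle and those that did not. Bbc3, which codes for Puma, made the largest change of all members. Bbc3 (chr7:16042318-16052130) stood at 197, 134, 237 and 214 normalized counts in MDSC, at 687, 615, 535 and 732 in MDSC-NP-Blk, and at 762, 814, 984 and 924 in CITED. Each group lay above the one before it. Bbc3 was 3.28-fold higher in MDSC-NP-Blk than in MDSC (log2 fold change 1.71, SE 0.121, adjusted p = 8.8e-14), 4.46-fold higher in CITED than in MDSC (2.16, SE 0.121, adjusted p = 8.1e-17) and 1.36-fold higher in CITED than in MDSC-NP-Blk (0.44, SE 0.111, adjusted p = 0.0026). Length correction changed these to 1.66, 2.11 and 0.45.

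Bcl2l11 (chr2:127967958-128004476), which codes for Bim, rose to about the same level with either particle. It stood at 1351, 1456, 1441 and 1377 normalized counts in MDSC, at 2103, 2323, 2386 and 2063 in MDSC-NP-Blk, and at 2027, 2067, 2087 and 2044 in CITED. Both particle groups lay above MDSC and overlapped each other. The rise was 0.66 in log2 in MDSC-NP-Blk (SE 0.0589, adjusted p = 2.6e-11) and 0.55 in CITED (SE 0.0591, adjusted p = 1.0e-09), and CITED differed from MDSC-NP-Blk by -0.11 (95% interval -0.23 to 0.01, adjusted p = 0.20). Removing the length trend raised the changes against MDSC to 0.75 and 0.69, since Bcl2l11 too has a long transcript, of 5046 bases.

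Bcl2l11 and Bbc3 are textbook targets of the FOXO forkhead factors, and both genes rose in each particle group. Of their promoter windows, those that hold the forkhead letters are shown. The windows are from RefSeq on build GRCm38.p6, each running from 250 bases before to 50 bases after a transcript start, and capitals mark GTAAACA or its reverse complement TGTTTAC, searched on both strands. The Bcl2l11 window is chr2:128125788-128126087 (plus strand), with the match starting 227 bases before the transcript start. The Bbc3 window shown is chr7:16310011-16310310 (plus strand), with the match 167 bases before its start. Another Bbc3 window, chr7:16310181-16310480 (plus strand), does not hold these letters.

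Bcl2l11 promoter: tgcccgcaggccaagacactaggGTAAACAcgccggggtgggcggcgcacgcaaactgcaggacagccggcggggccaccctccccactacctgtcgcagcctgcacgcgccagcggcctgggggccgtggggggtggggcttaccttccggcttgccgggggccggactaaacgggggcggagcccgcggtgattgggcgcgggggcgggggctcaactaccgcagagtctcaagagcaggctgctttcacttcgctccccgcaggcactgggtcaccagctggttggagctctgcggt
Bbc3 promoter: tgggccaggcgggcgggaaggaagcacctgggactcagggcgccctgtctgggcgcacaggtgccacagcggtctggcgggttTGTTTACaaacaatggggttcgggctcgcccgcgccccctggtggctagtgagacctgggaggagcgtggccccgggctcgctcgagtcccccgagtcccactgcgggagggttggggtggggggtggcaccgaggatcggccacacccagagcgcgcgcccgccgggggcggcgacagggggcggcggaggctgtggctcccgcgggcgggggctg

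The letters were present in 2 of the 15 windows of the 9 members matched by symbol, and in 3.65% of all 32851 windows. The other motif searched, the E-box CACGTG, was also present in 2 of the 15 windows, those of Bax and Bbc3. It was present in 7.15% of all windows. Foxo3 transcripts were higher in MDSC-NP-Blk than in MDSC by 0.16 in log2 (adjusted p = 0.016) and differed by 0.03 in CITED from MDSC (adjusted p = 0.67). Foxo1 differed by 0.26 (adjusted p = 0.038) and 0.03 (adjusted p = 0.86) in the same comparisons. With length correction Foxo3 rose by 0.34 and 0.30 and Foxo1 by 0.50 and 0.37, all past the threshold. Binding of a factor was not measured.

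Bad, a BH3-only protein that growth factor signalling keeps phosphorylated, was higher with particles. Bad (chr19:6918902-6929280) stood at 330, 441, 372 and 351 normalized counts in MDSC, at 591, 427, 510 and 516 in MDSC-NP-Blk, and at 655, 493, 522 and 529 in CITED. CITED lay above MDSC in every library, whereas MDSC-NP-Blk replicate 2 fell below MDSC replicate 2. The gene rose by 0.45 in log2 in MDSC-NP-Blk (SE 0.106, adjusted p = 7.6e-04) and by 0.56 in CITED (SE 0.106, adjusted p = 3.5e-05), and CITED differed from MDSC-NP-Blk by 0.11 (95% interval -0.10 to 0.32). Its transcript is short, at 1188 bases, and with the length trend removed the values against MDSC were 0.22 in MDSC-NP-Blk (adjusted p = 0.064, no longer passing) and 0.32 in CITED (adjusted p = 0.0049). The Bad locus overlaps those of Gpr137 and Gm56656 on the opposite strand.

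Noxa and Bid showed small differences or none that passed. Pmaip1 (chr18:66591604-66598636), which codes for Noxa, a partner of Mcl1, stood at 789, 876, 801 and 763 normalized counts in MDSC, at 994, 982, 888 and 980 in MDSC-NP-Blk, and at 835, 882, 778 and 901 in CITED. MDSC-NP-Blk was the high group, by 0.25 in log2 over MDSC (SE 0.0735, adjusted p = 0.0059). CITED differed by 0.07 from MDSC (95% interval -0.08 to 0.22) and by -0.18 from MDSC-NP-Blk (95% interval -0.33 to -0.03, adjusted p = 0.085), which passed without MDSC-NP-Blk replicate 3 (-0.21, adjusted p = 0.046). Bid (chr6:120862525-120894171), which caspase-8 cleaves to link death receptors to mitochondria, stood at 654, 887, 751 and 755 normalized counts in MDSC, at 724, 705, 722 and 616 in MDSC-NP-Blk, and at 671, 726, 722 and 685 in CITED. All 3 groups overlapped. Bid differed from MDSC by -0.14 in MDSC-NP-Blk (95% interval -0.31 to 0.04) and by -0.12 in CITED (95% interval -0.29 to 0.05), and with the length trend removed it was lower by 0.23 in each (adjusted p = 0.022 and 0.021, log2 fold changes of -0.23 and -0.23). Its locus overlaps that of Bcl2l13 on the opposite strand.

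**Figure D2:**
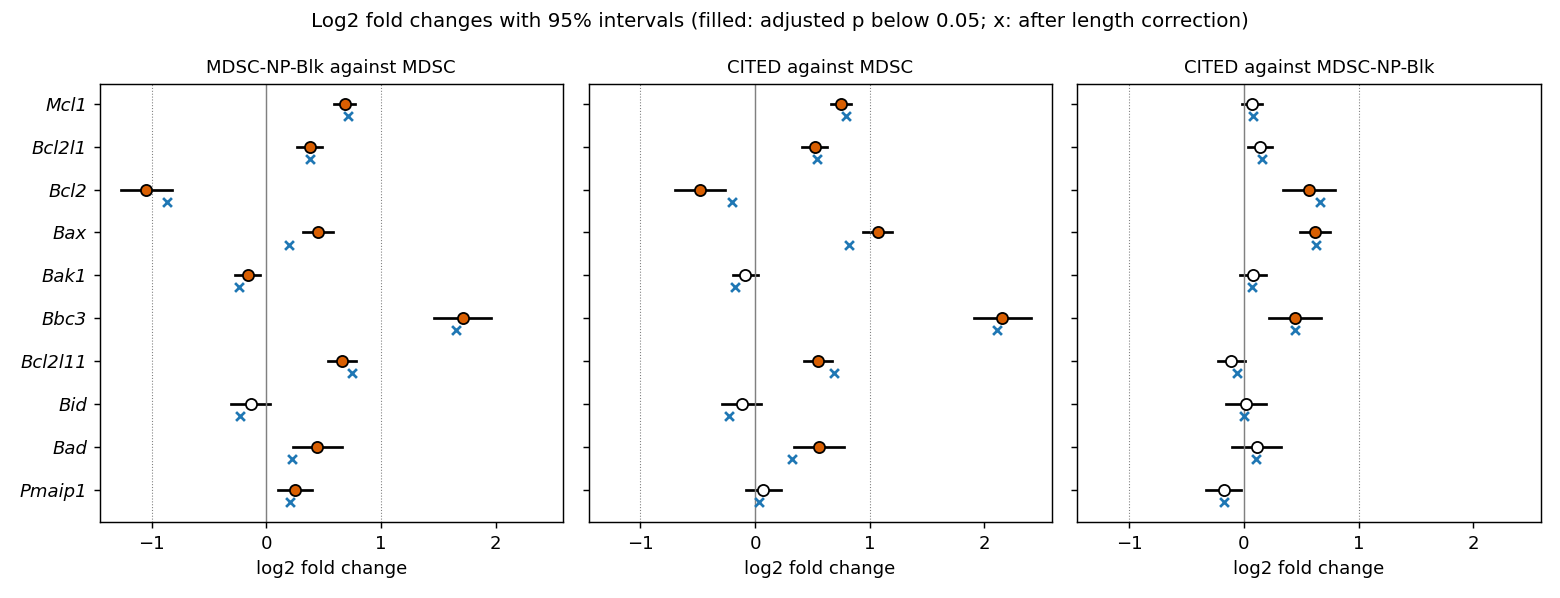
Log2 fold changes (horizontal axes) of the 10 members in the 3 comparisons, with 95% intervals as lines, filled points where the adjusted p was below 0.05, and crosses for the value after transcript length correction. Bbc3 lies farthest right against MDSC in both particle groups, and only Bcl2, Bax and Bbc3 are filled in the comparison of CITED with MDSC-NP-Blk.

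Counted together, 7 members were higher and 2 lower in MDSC-NP-Blk than in MDSC, against a background of 38.6% of all 17676 tested genes that passed in either direction (19.9% higher and 18.6% lower). In CITED against MDSC, 6 were higher and 1 lower, against 44.5% of all genes (22.2% higher and 22.2% lower). Between CITED and MDSC-NP-Blk, 3 were higher and none lower, against 22.0% of all genes (10.5% higher and 11.4% lower). Well-counted genes pass more often, and of the 7871 genes with a mean level at least that of the lowest member, 66.1%, 73.2% and 38.2% passed in these comparisons. Read against those, the share of members that passed was near the background in CITED against MDSC and in CITED against MDSC-NP-Blk. The median log2 fold change of the members was 0.41, 0.53 and 0.09 in the same order, beside -0.03, -0.05 and 0 over all genes. A change of at least 1 in log2 was passed by Bbc3 and Bcl2 in MDSC-NP-Blk (4.74% of all genes against MDSC) and by Bbc3 and Bax in CITED (9.99%), and by no member between CITED and MDSC-NP-Blk (2.65%). Libraries did not overlap for 8, 7 and 4 members, against 35.6%, 42.5% and 21.2% of all genes. The first and second comparisons share the MDSC libraries, and the third reuses both particle groups.

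**Figure D3:**
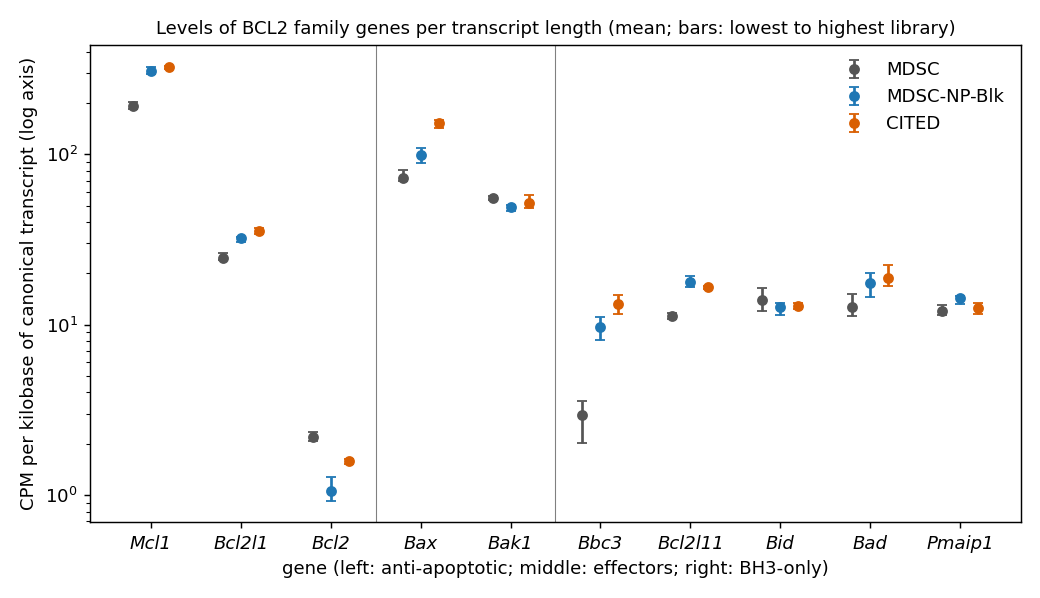
Levels of the members in CPM per kilobase of canonical transcript (vertical log axis) by group, with the mean as point and the lowest to highest library as bars. Mcl1 is highest in all groups, Bcl2 is lowest, and Bbc3 climbs from near Bcl2 in MDSC to the level of Bid in CITED.

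Per length, Mcl1 was the highest of the 10 members, and Bcl2 had the lowest mean in each group. Mcl1 averaged 192 CPM per kilobase for MDSC, 309 for MDSC-NP-Blk and 323 for CITED. Bax came next in each group, at 72.8, 99.4 and 152 CPM per kilobase, then Bak1 at 55.0, 49.1 and 51.8, then Bcl2l1 at 24.8, 32.2 and 35.5, with no overlap between neighbours among these 4. The BH3-only genes were lower and closer together. In MDSC, Bid, Bad, Pmaip1 and Bcl2l11 lay between 14 and 11.3 CPM per kilobase, each overlapping the next, and Bbc3 at 2.95 overlapped Bcl2 at 2.20. In MDSC-NP-Blk, Bcl2l11 at 17.8, Bad at 17.4, Pmaip1 at 14.3 and Bid at 12.7 again overlapped in turn, with Bbc3 at 9.71 and Bcl2 at 1.06 apart below them. In CITED, Bad at 18.8 and Bcl2l11 at 16.5 CPM per kilobase were followed by Bbc3, Bid and Pmaip1 at 13.2, 12.9 and 12.6, which overlapped, and by Bcl2 at 1.58.

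Summed by role on this scale, how the effectors stood to the protectors depended on which protectors were counted. The sum of Mcl1, Bcl2l1 and Bcl2 was 219 ± 8.02 CPM per kilobase for MDSC, 342 ± 12 for MDSC-NP-Blk and 360 ± 5.34 for CITED (SD, n = 4 each). The sum of Bax and Bak1 was 128 ± 5.56, 149 ± 8.83 and 204 ± 9.21 CPM per kilobase. Expressed as a share of the protector sum, the effectors were at 58.3% ± 1.86 for MDSC, 43.4% ± 2.01 for MDSC-NP-Blk and 56.7% ± 2.52 for CITED, so the libraries of MDSC-NP-Blk, at 42.1% to 46.4%, lay below those of both other groups, which overlapped. The 5 BH3-only genes summed to 53.0 ± 3.92, 72.0 ± 2.42 and 74.0 ± 1.2 CPM per kilobase, which was 24.2% ± 1.52, 21.1% ± 0.950 and 20.5% ± 0.616 of the protector sum. Bbc3 made up 5.63% ± 1.45 of the BH3-only sum for MDSC, 13.5% ± 1.72 for MDSC-NP-Blk and 17.8% ± 2.02 for CITED. Mcl1 made up 87.7% to 90.3% of the sum of the 3 member protectors on average. With the 4 other protectors tested (Bcl2a1a, Bcl2a1b, Bcl2a1d and Bcl2l2) added, an alternative chosen after seeing the data, the protector sum was 649 ± 36.5 CPM per kilobase for MDSC, 965 ± 26.1 for MDSC-NP-Blk and 1218 ± 72.8 for CITED. The effectors were then at 19.7% ± 0.748, 15.4% ± 1.01 and 16.8% ± 1.10 of it, so that CITED overlapped MDSC-NP-Blk and lay below MDSC, and Mcl1 made up 29.7%, 32.0% and 26.6%. The BH3-only genes were at 8.18% ± 0.505, 7.46% ± 0.268 and 6.09% ± 0.377 of this wider sum. On it CITED lay below both other groups, whereas on the sum of the 3 member protectors CITED and MDSC-NP-Blk overlapped. These sums carry no length correction beyond the division by length, are transcript levels rather than protein, and were not tested.

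**Figure D4:**
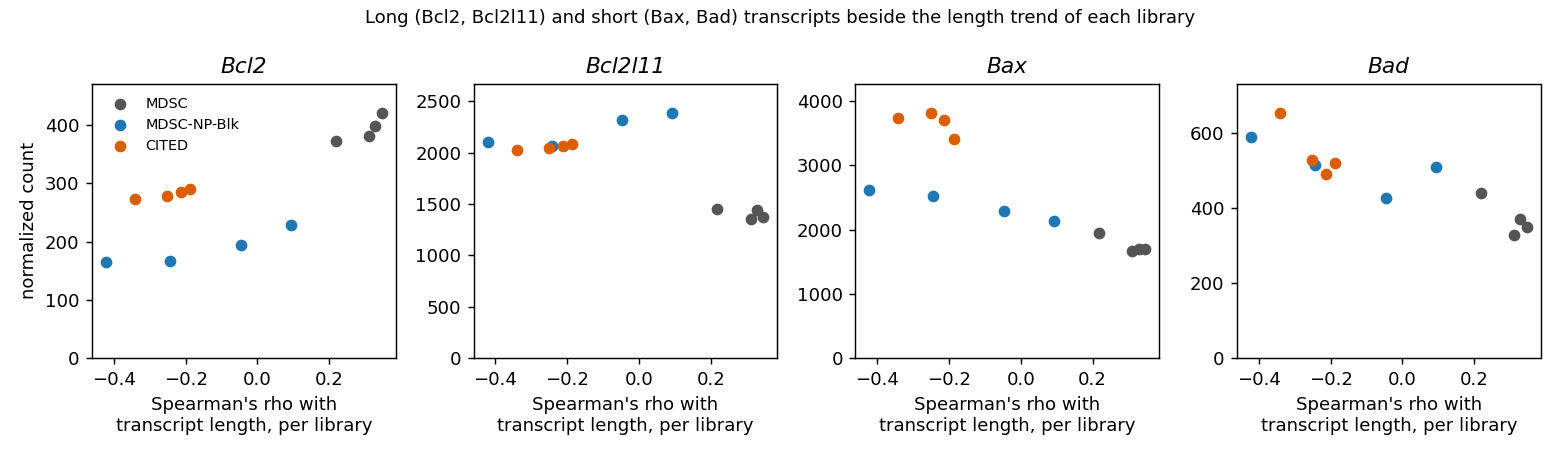
Normalized counts (vertical axes from 0) of the long transcripts Bcl2 and Bcl2l11 and the short transcripts Bax and Bad in the 12 libraries, against each library's Spearman's rho between gene level and transcript length. Within MDSC-NP-Blk, Bcl2 climbs and Bax declines as rho climbs, while over the rho they share CITED lies above MDSC-NP-Blk for both.

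The length trend touched the members unequally, as their canonical transcripts run from 976 to 7247 bases. Within MDSC-NP-Blk, the libraries with the lowest rho, replicates 1 and 4, had the lowest Bcl2 counts (166 and 167) and the highest Bax counts (2621 and 2530). Replicate 3, with the highest rho, had the highest Bcl2 count (229) and the lowest Bax count (2131). Between CITED and MDSC-NP-Blk, whose ranges of rho overlap, the corrected and uncorrected values were close for Bax (0.63 and 0.62) and for Bcl2 (0.66 and 0.57). All MDSC libraries had a higher rho than any other library, so in the comparisons against MDSC the trend and the group cannot be told apart.

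Mcl1 had the lowest p over the 3 groups together (F = 176, adjusted p = 1.2e-16) and was also the highest member per length. Bid was the member that did not pass that test (adjusted p = 0.32). Among the genes whose log2 CPM followed Mcl1 most closely over the 12 libraries, of 10555 genes, were Gsdme and Nub1 (Pearson's r = 0.997 for each), and those most opposed were Acaca (r = -0.994) and Cad (r = -0.991). With MDSC apart from the other libraries, such an r mostly reflects that separation.

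**Figure D5:**
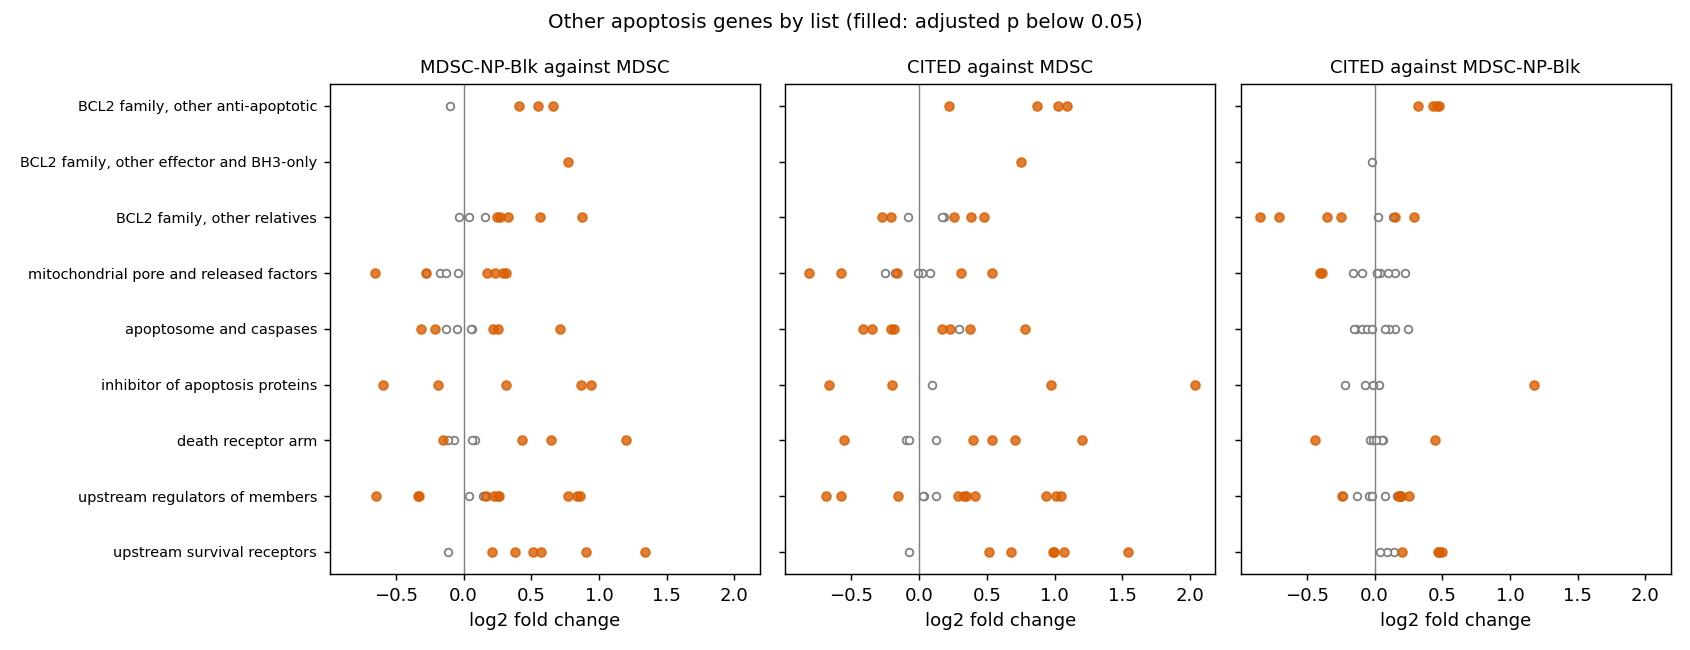
Log2 fold changes (horizontal axes) of the 65 other apoptosis genes with a group mean of at least 50 normalized counts, by list (vertical axis), in the 3 comparisons. Filled points passed at an adjusted p below 0.05; the survival receptor list lies mostly to the right of 0 in all 3 comparisons.

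Around the members, 73 further genes of the apoptosis pathway were read out, of which 70 could be tested. In CITED against MDSC 33 were higher, 15 lower and 22 did not pass. In MDSC-NP-Blk against MDSC the numbers were 35, 10 and 25, and in CITED against MDSC-NP-Blk they were 17, 8 and 45. The shares that passed, 68.6%, 64.3% and 35.7%, were close to the 73.2%, 66.1% and 38.2% of well-counted genes given above. Their median log2 fold changes were 0.18, 0.17 and 0.04. Bcl2l10, Hrk and Trp73 had no count in any library, where a count of 0 allows up to 3 counts, or 7.925e-06% to 1.456e-05% of a library. Bok, the third effector of the family, had 3 counts in a single MDSC library, and Fasl, the ligand of Fas, had 2.

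Among other protectors, the Bcl2a1 genes, which code for A1, a protector induced by NF-kB in myeloid cells, rose in both particle groups. Bcl2a1b rose by 1.02 in CITED and by 0.55 in MDSC-NP-Blk, and Bcl2a1a by 1.09 and 0.66, all against MDSC. Bcl2a1d rose by 0.87 and 0.41. CITED exceeded MDSC-NP-Blk by 0.43 to 0.48 in these 3 genes. The copies share 79.6% to 89.1% of their 31-base words with other transcripts, mostly each other, so how reads were divided among them is uncertain. They are also short, and with the length trend removed Bcl2a1d no longer passed in MDSC-NP-Blk (0.15, adjusted p = 0.060). Bcl2a1b was then at 0.76 in CITED and 0.28 in MDSC-NP-Blk, and Bcl2a1a at 0.83 and 0.39, which all passed. Bcl2l2, the remaining protector tested, rose by 0.22 in CITED. Bmf, a BH3-only gene released from the cytoskeleton under stress, rose by 0.76 in CITED and 0.77 in MDSC-NP-Blk. Bik, another BH3-only gene, had at most 9.67 normalized counts in a library and did not pass.

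Of 9 other relatives, 3 were higher and 2 lower in CITED than in MDSC, and 5 were higher and none lower in MDSC-NP-Blk. That was 55.6% of the list in each, below the 73.2% (CITED) and 66.1% (MDSC-NP-Blk) of well-counted genes. Bnip3, a mitophagy receptor induced by hypoxia, rose by 0.57 in MDSC-NP-Blk and fell by 0.28 in CITED, with a difference between the particle groups of -0.84 (adjusted p = 3.1e-09). Its relative Bnip3l was higher by 0.27 in MDSC-NP-Blk and did not pass in CITED (-0.08), with a difference of -0.35 between the particle groups. Tmbim6, which codes for BAX inhibitor-1, rose by 0.48 in CITED and 0.33 in MDSC-NP-Blk, and Bag1, a BCL2-binding cochaperone, rose by 0.38 and 0.25. Bcl2l13, a mitochondrial relative, was at -0.21 in CITED against MDSC, which turned to 0.06 (adjusted p = 0.35) with the length trend removed.

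Downstream of the pore the changes were mixed in direction. Of 10 genes of the mitochondrial pore and its released factors, 2 were higher and 3 lower in CITED than in MDSC, and 4 were higher and 2 lower in MDSC-NP-Blk. With the length trend removed these became 1 higher and 4 lower in CITED, and 1 higher and 5 lower in MDSC-NP-Blk. Before correction 50% and 60% of the list passed, below the 73.2% and 66.1% of well-counted genes. After correction 7756 and 6662 of all 17676 genes passed in these comparisons. Opa1, which shapes the inner membrane folds that store cytochrome c, fell by 0.81 in CITED and by 0.65 in MDSC-NP-Blk. Its values were -0.59 and -0.50 with the length trend removed. Aifm1, the apoptosis-inducing factor, fell by 0.58 in CITED. Diablo, which codes for the IAP antagonist Smac, rose by 0.54 and 0.31, but 96.3% of its 31-base words also occur in Gm49027, so how its reads were divided is uncertain. Vdac1, the main outer membrane channel, was at 0.23 in MDSC-NP-Blk and -0.16 in CITED against MDSC, with -0.39 between the particle groups. With the length trend removed these were 0.12, which did not pass (adjusted p = 0.052), -0.28 and -0.40. Vdac2, which holds Bak1 at the membrane, was at 0.31 and 0.29 in CITED and MDSC-NP-Blk, and at 0.07 and 0.04, not passing, with the length trend removed. Of 9 apoptosome and caspase genes, 4 were higher and 4 lower in CITED than in MDSC, and 3 and 2 in MDSC-NP-Blk. These were 88.9% and 55.6% of the list, beside the same 73.2% and 66.1%. Casp6, an executioner caspase, rose by 0.78 in CITED and 0.71 in MDSC-NP-Blk, and Casp9, the initiator on the apoptosome, by 0.37 and 0.22. Casp2 was lower in CITED by 0.20 (log2 fold change -0.20), a value that did not pass with the length trend removed (-0.16). Apaf1, the scaffold of the apoptosome, was lower by uncorrected values (-0.35 and -0.21) and did not pass with the length trend removed (-0.10 and -0.05). Between CITED and MDSC-NP-Blk none of the 9 passed, where 38.2% of well-counted genes did.

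Among the 5 inhibitor-of-apoptosis genes, Birc3, an NF-kB target that codes for cIAP2, rose by 0.97 in CITED and by 0.94 in MDSC-NP-Blk. Xaf1, an interferon-induced antagonist of XIAP that was kept in this list, rose by 2.04 in CITED and 0.86 in MDSC-NP-Blk, with 1.18 between the particle groups (SE 0.232, adjusted p = 1.9e-04). Xaf1 levels were low, averaging 30.2 normalized counts for MDSC, 55.2 for MDSC-NP-Blk and 124 for CITED, and MDSC-NP-Blk overlapped MDSC. Birc6 fell by 0.66 and 0.59, values that shrank to -0.18 and -0.22 with the length trend removed. Birc2, which codes for cIAP1, rose by 0.31 in MDSC-NP-Blk. In the death receptor arm, 4 of 10 genes were higher and 1 lower in CITED than in MDSC. That was 50% of the list, below the 73.2% of well-counted genes. Fas, the receptor that feeds into Bid through caspase-8, averaged 920 normalized counts for MDSC, 2104 for MDSC-NP-Blk and 2119 for CITED. It rose by 1.2 against MDSC in both, and the particle groups differed by 0.01. Tnfrsf10b, the TRAIL receptor, rose by 0.54 in CITED, and Fadd, the adaptor of Fas, fell by 0.55. Tnfrsf1a, a TNF receptor, rose by 0.40 in CITED and 0.43 in MDSC-NP-Blk, and its adaptor Tradd by 0.70 and 0.65. Tnfsf10, the gene of TRAIL, was at -1.33 in CITED and did not pass (adjusted p = 0.085).

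Upstream, p53 is a known inducer of Bbc3, Pmaip1 and Bax. Trp53 itself differed by 0.13 in CITED (adjusted p = 0.17) and 0.15 in MDSC-NP-Blk (adjusted p = 0.11) against MDSC, or -0.05 and 0.01 with the length trend removed, and 20.1% of its 31-base words occur elsewhere, including a pseudogene. Its target Cdkn1a rose by 1.05 in CITED and 0.86 in MDSC-NP-Blk. Another target, Mdm2, rose by 0.29 in CITED and stood at 0.04 in MDSC-NP-Blk, with 0.25 between them (adjusted p = 5.3e-04). Ddit3, the stress factor CHOP, rose by 0.93 and 0.77, or by 0.69 and 0.51 with the length trend removed. Pim1, a kinase that phosphorylates Bad, rose by 1.01 and 0.84, and Akt1, which does so too, by 0.42 and 0.23. Huwe1, a ligase that marks Mcl1 for destruction, fell by 0.68 and 0.64, shrinking to -0.21 and -0.27 with the length trend removed.

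Of 7 receptor genes through which myeloid cells take survival signals, 6 were higher and none lower in each comparison against MDSC, where 73.2% (CITED) and 66.1% (MDSC-NP-Blk) of well-counted genes passed in either direction. Csf3r, the G-CSF receptor, rose by 1.54 in CITED and 1.34 in MDSC-NP-Blk, and Csf1r by 1.00 and 0.90. The shared chain of the GM-CSF receptor, Csf2rb, rose by 0.99 in CITED and 0.51 in MDSC-NP-Blk, and its close copy Csf2rb2 by 1.07 and 0.57, with 30.2% and 30.9% of their 31-base words shared, mostly with each other. Csf2ra, the specific chain, rose by 0.68 and 0.21. CITED exceeded MDSC-NP-Blk by 0.47 to 0.50 in Csf2ra, Csf2rb and Csf2rb2 (adjusted p = 7.9e-09 or lower). Mpo fell in the same groups in which these receptors rose, as given above, and whether the mix of cell stages accounts for either was not tested.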

How the data were processed

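The authors sequenced poly(A) RNA as paired-end reads. Per the study's methods and the submitters' processing notes, reads were quantified with Salmon 1.4.0 against a decoy-aware GENCODE transcriptome (GRCm39, release not given in the sources used here) and summed per gene with tximport in R 4.3.2. The deposited values are whole-number counts per gene symbol, 1 column per library. The row without a symbol (0% of counts) was left out. The members and lists were chosen with earlier results of these data known.

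Counts were tested with edgeR 4.0.16 (R 4.3.3; quasi-likelihood F test, TMM factors, all 12 libraries in 1 fit by group, no covariate, genes with at least 2 counts in all). P-values were adjusted by Benjamini-Hochberg over 17676 genes, and a gene passed below 0.05. The biological coefficient of variation was 9.03%. Intervals are 95% and cover the spread between samples. Normalized counts are counts divided by the TMM-scaled library size, times the mean of those sizes. Levels per length divide CPM by the canonical transcript of GENCODE release 39, which gave a length for 17648 of the tested genes.

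Alternatives were DESeq2 1.42.0 (size factors, Wald test), other filters, only the 8 libraries compared, the replicate number as a block, each library left out, and, per library, removal of a loess curve (span 0.5) of level on transcript length. No 2 libraries of a group agreed within sampling noise (chi-square per gene 4.71 to 21.5). Named genes were all members and, per list, the 3 with the lowest p in each comparison, those past a log2 fold change of 1, and those without counts; 2 genes that the rule names are not reported here. Foxo1, Foxo3, Bcl2l2, Ddit3 and Trp53 were added after their values were seen. The scripts were tested on simulated data.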

Additional observations from a re-analysis of the deposited data

Results flagged for a closer look

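In the 30 sets of 4 libraries (10 members in 3 groups), 2 libraries stood apart from the other 3 of their group by Dixon's test, where chance alone gives about 1 in 20. Bax in MDSC replicate 2 was at 1944 normalized counts, above 1665, 1695 and 1699 in the others. Its rho with transcript length was 0.218, the lowest of the MDSC libraries, whose others were 0.311 to 0.346. Without that library, or any other, Bax kept its direction and passed in all 3 comparisons. Pmaip1 in MDSC-NP-Blk replicate 3 was at 888 normalized counts, below 980, 982 and 994, and without it the difference between CITED and MDSC-NP-Blk passed, at -0.21 (adjusted p = 0.046).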

How the results depend on the processing

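Over the 7 alternatives and the 12 fits that each leave out a library, no member changed direction among the calls that passed. Transcript length mattered most. With the length trend removed, the members lower in CITED than in MDSC became 2 (Bak1 and Bid, while Bcl2 was lost), and those lower in MDSC-NP-Blk became 3, while the counts of members higher were 6 for CITED and 6 for MDSC-NP-Blk relative to MDSC, and 4 for CITED relative to MDSC-NP-Blk. Among the 70 other apoptosis genes tested it turned the sign of 8 in CITED against MDSC and of 6 in MDSC-NP-Blk against MDSC. Those that passed before or after were, in CITED, Bcl2l13 (0.060), Vdac3 (-0.15), Xiap (0.051), Ripk1 (0.15), Cflar (0.19) and Il6st (0.26), and, in MDSC-NP-Blk, Vdac3 (-0.025) and Ripk1 (0.020). Leaving out 1 library gave 1 to 2 members lower in CITED than in MDSC (2 without CITED replicate 4), 1 to 2 lower in MDSC-NP-Blk than in MDSC (1 without MDSC replicate 3 or MDSC-NP-Blk replicate 4), and 0 to 1 lower in CITED than in MDSC-NP-Blk (1 without MDSC-NP-Blk replicate 3). The replicate block changed no member's call and gave 6 members higher and 1 lower in CITED and 7 and 2 in MDSC-NP-Blk, each relative to MDSC, and 3 and 0 in CITED relative to MDSC-NP-Blk. Over all genes the block moved the calls of these comparisons from 7862 to 7828, from 6815 to 6927 and from 3883 to 4182. The replicate numbers showed no consistent pairing of the samples, though this check cannot exclude one. Deviations of same-numbered libraries correlated at -0.060 to 0.14, and those of other numbers at -0.16 to 0.16. Of 12 libraries, 5 were closest to their own number. The depth behind the lowest member, Bcl2, was 130 to 484 counts a library, and behind Mcl1 16342 to 38078. Small differences could not be resolved for most members. Against MDSC, SEs ran from 0.043 in log2 for Mcl1 to 0.121 for Bbc3. Bak1 at -0.16 passed in MDSC-NP-Blk against MDSC, while Bid at -0.14 did not. Between CITED and MDSC-NP-Blk, Bcl2l1 at 0.14 and Pmaip1 at -0.18 did not pass. Protein levels, cell death and isoforms were not measured in these libraries. In a separate assay, the study reports that binding particles had no substantial effect on the viability of MDSCs.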
